A study of Homo sapiens with 6 samples.

Results

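LNCaP is a human cell line from a metastasis of prostate cancer that responds to androgen. The genes described here are the nuclear-encoded subunits of the mitochondrial respiratory chain, complexes I to V. They were matched by symbol alone, from the gene name families NDUFA, NDUFB, NDUFC, NDUFS, NDUFV, SDH, UQCR, COX4 to COX8 and ATP5. The match used no measured value, but the families were chosen with earlier results of these data known. The families matched 89 of 19571 rows of the deposited gene table. Of these, 78 encode chain subunits (36 of complex I, 4 of complex II, 8 of complex III, 15 of complex IV and 15 of complex V), and 11 do not. The 11 are the antisense RNAs NDUFA6-AS1 and NDUFB2-AS1, the readthrough genes NDUFC2-KCTD14 and ATP5J2-PTCD1, the pseudogene UQCRBP1, the gene copies UQCRHL and ATP5L2, and NDUFA4L2, COX7A2L, ATP5S and ATP5SL. The symbols are those of the deposited table; ATP5G1, for example, is now named ATP5MC1. RNA was sequenced from 3 libraries of LNCaP cells that stably carried Flag-tagged KDM4B (replicates 1, 2 and 4), a histone lysine demethylase, and from 3 libraries of cells with the empty vector (replicates 1, 2 and 3). All 6 came from cells held for 3 days before harvest in RPMI medium with 10% of a serum abbreviated CFBS in the labels. The labels name neither the promoter of the Flag-KDM4B construct nor whether each line was a clone or a pool. Since they also do not call the replicates separate cultures, p-values reflect only the spread among these libraries, which may be technical.

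The respiratory chain passes electrons from NADH (through complex I) and from succinate (through complex II) to ubiquinone, then through complex III and cytochrome c to oxygen at complex IV. Complexes I, III and IV pump protons across the inner mitochondrial membrane, and complex V, the ATP synthase, uses the return of the protons to make ATP. Most subunits are encoded in the nucleus and imported, and a few catalytic ones are encoded by mitochondrial DNA; the gene table held 0 rows of mitochondrially encoded ones. Complex II has nuclear-encoded subunits only.

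The label of the libraries was checked first. KDM4B itself measured 26.3, 27.2 and 25.8 FPKM (fragment counts per transcript length and library size) in KDM4B-labelled libraries, against 24.7, 25.2 and 25.3 FPKM in vector libraries. The groups lay next to each other without overlap, and the log2 fold change of 0.07 missed the threshold as deposited (limma, adjusted p = 0.113), while 0.29 after scaling passed it (limma, adjusted p = 2.86e-05). Ribosomal RNA genes made up 10.5%, 8.14% and 10.2% of summed FPKM in KDM4B-labelled libraries, against 0.47%, 0.14% and 0.15% in vector libraries. Without vector replicate 1, the highest of them, the vector mean was 0.15%. With FPKM as deposited the 12148 tested genes had a median log2 fold change of -0.22. It was -0.01 once each library was divided by its median of ratios (0.910, 0.948 and 0.922 for KDM4B, 1.08, 1.09 and 1.09 for vector), which is called scaling here. Calls are therefore given on both scales, as deposited first, with the fold changes of those made, while FPKM levels are as deposited. The part of ribosomal RNA in the difference between them was not tested. The luminal prostate markers KLK3, KLK2, FOLH1, TMPRSS2, HOXB13, KRT8, KRT18 and STEAP2 were all detected, at a summed 1660.3 to 1725 FPKM in KDM4B-labelled libraries and 4044 to 4196 FPKM in vector libraries. Members of that list went both ways. KLK3 averaged 441 FPKM in KDM4B-labelled libraries and 2212 FPKM in vector libraries, and KLK2, TMPRSS2, KRT8 and KRT18 also fell on both scales. FOLH1, at 359.5 FPKM in KDM4B-labelled libraries and 298 FPKM in vector libraries, and HOXB13 rose on both scales, and STEAP2 fell as deposited and was not called after scaling. Markers of other cell types stayed low or near 0. The 6 fibroblast genes summed to 3.38 to 3.63 FPKM in KDM4B-labelled libraries against 2.65 to 2.78 FPKM in vector libraries, and 5 immune genes to 4.39 to 5.62 FPKM in KDM4B-labelled libraries against 4.54 to 5.13 FPKM in vector libraries. The others were 3 endothelial genes at a summed 0.40 to 0.46 FPKM in KDM4B-labelled libraries against 0.85 to 1.01 FPKM in vector libraries, and 1 basal gene at 0.05 to 0.15 FPKM in KDM4B-labelled libraries against 0.10 to 0.41 FPKM in vector libraries. The part of these marker differences in the results was not tested. In bulk RNA, fewer cells of a type and less RNA per cell cannot be told apart.

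Transcripts of the chain were abundant and went both ways within complexes I, III, IV and V. Of the 78 subunit genes, 76 passed the filter of a mean of 1 FPKM; COX7A1 and COX8C, isoforms of muscle and testis, did not. As deposited 18 rose and 36 fell in KDM4B-labelled libraries relative to vector libraries (limma on log2(FPKM + 1) with Benjamini-Hochberg adjustment, p below 0.05), where 13.4% of all tested genes rose and 60.3% fell. After scaling 45 rose and 11 fell, where 32.4% of all tested genes rose and 35.5% fell. Complexes IV and V held 1 scaled fall each. These were COX7B2, near the filter at 0.86 FPKM in KDM4B-labelled libraries and 1.80 FPKM in vector libraries, and ATP5G2 (log2 fold change -0.08). The median log2 fold change of the 76 was -0.07 as deposited and 0.15 after scaling. A call in the same direction on both scales was made for 18 rises (13.4% of all tested genes) and 11 falls (35.5% of all tested genes). The rises included NDUFB3, NDUFB4, NDUFS1, NDUFS3, NDUFS5, SDHA, UQCR10, UQCRC2, UQCRFS1, UQCRH, COX6B1, COX7B, ATP5A1, ATP5C1, ATP5G1, ATP5G3 and ATP5H, and the 11 falls were NDUFA7, NDUFA13, NDUFB7, NDUFB9, NDUFB10, NDUFC1, NDUFC2, NDUFS4, UQCRQ, COX7B2 and ATP5G2. With each library left out in turn, 14 of the 18 and 8 of the 11 kept their call on both scales, and those that did not (UQCRC2, UQCRH, ATP5C1, ATP5H, NDUFA7, NDUFC2 and ATP5G2) are given with their values below.

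**Figure D1:**
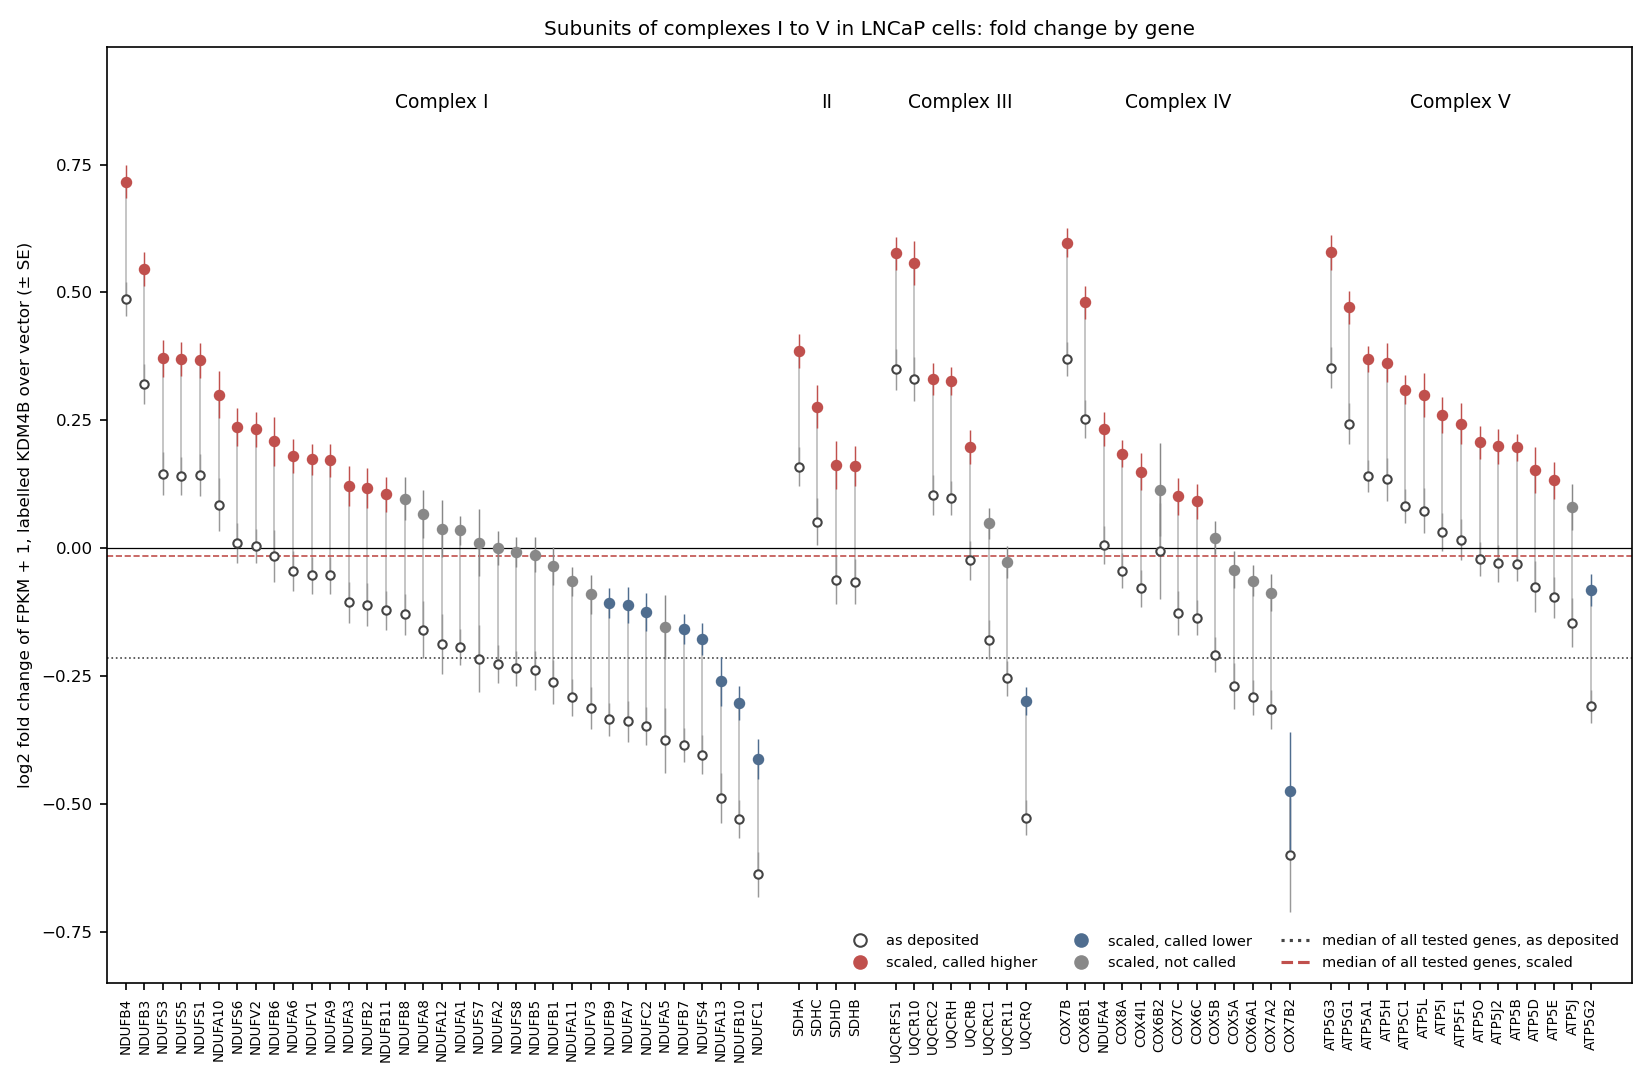
Log2 fold change of FPKM + 1, labelled KDM4B over vector, for 75 tested subunit genes, ordered within each complex by the scaled value; open circles are values as deposited, filled circles median-of-ratios scaled values, coloured by call, and bars are standard errors. Complexes I, III, IV and V each hold genes above and below 0 on both scales, from NDUFB4 at 0.49 as deposited to NDUFC1 at -0.64, while all 4 genes of complex II lie above 0 after scaling.

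The differences were small in size. On the log2(FPKM + 1) scale 0 of the 76 subunits were 2-fold higher or lower as deposited, where 152 of all tested genes were at least 2-fold higher and 416 at least 2-fold lower. The added 1 FPKM understates the change of low genes such as COX7B2, which averaged 0.86 FPKM in KDM4B-labelled libraries and 1.80 FPKM in vector libraries. After scaling 6 of the 76 differed by more than 0.5 on the log2 scale, where 15.8% of all tested genes did. Libraries of the groups did not overlap for 53 subunits as deposited, 18 with all KDM4B-labelled libraries above all vector libraries (14.6% of all tested genes) and 35 with all of them below (61.7% of all tested genes). After scaling these counts were 44 above (34.3% of all tested genes) and 13 below (37.4% of all tested genes).

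Promoter sequences are shown for the genes with the highest and the lowest fold change as deposited in complex I (NDUFB4 and NDUFC1) and in complex III (UQCRFS1 and UQCRQ), as examples chosen after their values were seen. They are RefSeq sequences of GRCh38.p14 from 250 bases before to 50 bases after the gene's start, at chr3:120596086-120596385 (plus strand) for NDUFB4, chr4:139302502-139302801 (minus strand) for NDUFC1, chr19:29213102-29213401 (minus strand) for UQCRFS1 and chr5:132866392-132866691 (plus strand) for UQCRQ. Capitals mark matches on either strand to the letters of 3 motifs that promoters of respiratory chain genes are known for: the NRF1 motif, shown by its name alone (10 letters, the 6th of which may be any base), CCGGAAG of ETS factors such as GABPA, and AANATGGCG of YY1.
NDUFB4: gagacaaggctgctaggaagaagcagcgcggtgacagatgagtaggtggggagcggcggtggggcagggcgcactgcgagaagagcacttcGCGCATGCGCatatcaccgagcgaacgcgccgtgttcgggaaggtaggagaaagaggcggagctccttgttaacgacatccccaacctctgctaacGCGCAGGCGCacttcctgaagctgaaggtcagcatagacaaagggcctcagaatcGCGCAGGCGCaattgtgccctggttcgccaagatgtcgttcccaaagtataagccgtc
NDUFC1: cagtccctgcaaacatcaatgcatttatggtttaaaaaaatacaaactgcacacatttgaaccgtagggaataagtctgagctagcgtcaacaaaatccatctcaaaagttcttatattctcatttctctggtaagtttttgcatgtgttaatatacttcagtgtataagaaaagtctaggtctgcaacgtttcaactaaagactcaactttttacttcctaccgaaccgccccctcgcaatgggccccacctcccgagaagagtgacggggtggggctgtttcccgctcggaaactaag
UQCRFS1: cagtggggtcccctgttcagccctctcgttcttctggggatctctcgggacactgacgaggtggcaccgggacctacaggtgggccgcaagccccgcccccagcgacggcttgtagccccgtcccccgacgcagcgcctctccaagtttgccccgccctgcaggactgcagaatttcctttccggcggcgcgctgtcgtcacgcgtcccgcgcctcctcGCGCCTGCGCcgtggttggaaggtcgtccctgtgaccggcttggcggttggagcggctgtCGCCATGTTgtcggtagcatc
UQCRQ: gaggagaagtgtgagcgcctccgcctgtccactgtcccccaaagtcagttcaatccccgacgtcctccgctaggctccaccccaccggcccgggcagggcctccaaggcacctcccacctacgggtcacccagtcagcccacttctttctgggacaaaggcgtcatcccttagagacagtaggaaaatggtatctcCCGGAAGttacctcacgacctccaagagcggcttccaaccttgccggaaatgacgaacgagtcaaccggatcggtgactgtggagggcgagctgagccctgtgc
NDUFB4 held the NRF1 letters at 3 places, UQCRFS1 held those of NRF1 and YY1, UQCRQ those of the ETS motif, and NDUFC1 none of the 3 in this window. Promoters were matched for 65 of the 78 subunit genes. Of these, 16 (24.6%) held the NRF1 letters, 19 (29.2%) the ETS letters, 16 (24.6%) the YY1 letters and 39 (60%) at least 1 of them. The same letters were in 6.28%, 10.7%, 3.37% and 17.9% of all 27305 RefSeq promoters of the same length, and in 12.9%, 20.9%, 7.48% and 35.8% of the 9719 matched promoters of tested genes. Among subunits that rose after scaling 10 of 36 matched promoters held the NRF1 letters, among those that fell 0 of 9 and among those not called 5 of 19. The ETS letters were in 11 of 36, 3 of 9 and 5 of 19 of the same groups, and the YY1 letters in 9 of 36, 2 of 9 and 5 of 19. At least 1 of the 3 was in 61.1%, 55.6% and 57.9%. These are small numbers that were not tested.

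Levels set a common frame for the members. Per length, the most abundant subunit transcript was ATP5B, the beta chain of the ATP synthase, at 732 ± 21.6 FPKM in KDM4B-labelled libraries and 748 ± 12.3 FPKM in vector libraries (SD, n = 3 each). NDUFB4 came next in KDM4B-labelled libraries and was the 3rd most abundant in vector libraries, where COX7C (481 ± 10.4 FPKM), NDUFB4 (462 ± 12.5 FPKM) and UQCRH (455 ± 4.65 FPKM) lay within their spread of each other or close to it. In KDM4B-labelled libraries, NDUFB4 (648 ± 15.0 FPKM) stood clear of UQCRH (487 ± 16.0 FPKM), ATP5A1 (471 ± 12.9 FPKM) and COX7C (441 ± 26.6 FPKM). Apart from the low isoforms COX6B2 and COX7B2, the least abundant was NDUFA10, an accessory subunit of complex I, at 15.7 ± 0.92 FPKM in KDM4B-labelled libraries and 14.7 ± 0.62 FPKM in vector libraries. Of the 78 genes 49 have at least 1 pseudogene named after them in RefSeq, 12 of them for NDUFB4 and 18 for COX6C, and nothing in the labels says how reads shared with such copies were assigned. Levels of these genes are therefore uncertain.

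The nuclear-encoded core subunits of complex I are described by 6 genes, of which 2 rose as deposited and 4 after scaling. Most of these subunits bind the flavin or iron-sulphur clusters and carry the electrons. NDUFS1, the largest iron-sulphur subunit, measured 46.4, 49.7 and 47.4 FPKM in KDM4B-labelled libraries, against 43.4, 41.9 and 44.3 FPKM in vector libraries. NDUFS3 measured 70.1, 75.02 and 70.8 FPKM in KDM4B-labelled libraries, against 66.5, 66.2 and 62.3 FPKM in vector libraries. Neither gene overlapped between the groups, and their log2 fold changes were 0.14 and 0.15 as deposited (limma, adjusted p = 0.00779 and 0.0078) and 0.37 for both after scaling. NDUFV1, which binds the flavin and oxidizes NADH, overlapped as deposited with 128, 137 and 135 FPKM in KDM4B-labelled libraries, against 140.3, 139 and 136 FPKM in vector libraries. NDUFV2, its iron-sulphur partner, overlapped as well, with 191, 189.5 and 194 FPKM in KDM4B-labelled libraries, against 196, 186 and 190.3 FPKM in vector libraries. Both were called higher only after scaling, with log2 fold changes of 0.17 and 0.23 (limma, adjusted p = 0.0005 and 0.000155). NDUFS8 and NDUFS7, which hold the last iron-sulphur clusters before ubiquinone, fell as deposited with log2 fold changes of -0.24 and -0.22 (limma, adjusted p = 8.34e-05 and 0.0106) and stood at -0.01 and 0.01 after scaling. The NDUFS7 values overlapped, with 92.5, 98.3 and 90.7 FPKM in KDM4B-labelled libraries and a wide spread of 120, 112 and 97.0 FPKM in vector libraries. Falls among these 6 core genes numbered 2 as deposited and 0 after scaling. The shares of all tested genes that rose and fell were 13.4% and 60.3% as deposited, and 32.4% and 35.5% after scaling.

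Among the 29 accessory subunits of complex I, which surround the core, 3 rose and 21 fell as deposited, where 13.4% and 60.3% of all tested genes did. After scaling 11 rose and 8 fell, where 32.4% and 35.5% of all tested genes did. The accessory subunits held both ends of the range of all subunits as deposited. NDUFB4, of the distal membrane arm, measured 635, 645 and 665 FPKM in KDM4B-labelled libraries, against 476, 459 and 451 FPKM in vector libraries. These groups were far apart, with a log2 fold change of 0.49 (SE 0.033) as deposited and 0.72 after scaling, the highest of the 76 (limma, adjusted p = 1.46e-07 and 3.66e-08). NDUFB4 has no skipped exon event, and the reads of its 1 retained intron event (chromosome 3, 120319958 to 120321258) gave 2302, 2570 and 2474 reads in KDM4B-labelled libraries, against 1703, 1674 and 1609 reads in vector libraries. NDUFB3, of the same arm, also rose, with 55.2, 58.6 and 58.9 FPKM in KDM4B-labelled libraries, against 46.2, 46.2 and 45.1 FPKM in vector libraries (log2 fold change 0.32 as deposited and 0.55 after scaling; limma, adjusted p = 1.59e-05 and 2.71e-07). NDUFS5 rose as well, at 339 ± 10.8 FPKM in KDM4B-labelled libraries and 307 ± 10.6 FPKM in vector libraries (SD, n = 3 each). Its log2 fold changes were 0.14 as deposited and 0.37 after scaling.

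NDUFC1, a small subunit next to NDUFC2 in the membrane arm, was at the other end. It measured 59.3, 64.0 and 63.2 FPKM in KDM4B-labelled libraries, against 102, 94.5 and 95.4 FPKM in vector libraries. The log2 fold change was -0.64 (SE 0.043) as deposited and -0.41 after scaling (limma, adjusted p = 1.37e-07 and 6.73e-06). NDUFB10 measured 152, 157 and 144 FPKM in KDM4B-labelled libraries, against 222, 217 and 216 FPKM in vector libraries. Each KDM4B-labelled library was below each vector library for both genes, and NDUFB10 had a log2 fold change of -0.53 as deposited and -0.30 after scaling (limma, adjusted p = 1.95e-07 and 1.93e-05). NDUFA13, also known as GRIM-19, measured 197 ± 12.5 FPKM in KDM4B-labelled libraries and 276 ± 13.5 FPKM in vector libraries (SD, n = 3 each), with log2 fold changes of -0.49 and -0.26 on the same scales. NDUFS4, NDUFB7, NDUFC2, NDUFA7 and NDUFB9 also fell on both scales, with log2 fold changes of -0.40, -0.39, -0.35, -0.34 and -0.33 as deposited and -0.18, -0.16, -0.12, -0.11 and -0.11 after scaling. The scaled NDUFA7 call was lost without KDM4B replicate 1, vector replicate 1 or vector replicate 2 (adjusted p from limma, 0.0506, 0.0538 and 0.0532). The scaled NDUFC2 call was lost without KDM4B replicate 2 (limma, adjusted p = 0.0572). The NDUFB subunits of the distal membrane arm went both ways. Of 11 genes 2 rose and 8 fell as deposited, where 13.4% and 60.3% of all tested genes did. After scaling 5 rose and 3 fell, from NDUFB4 at 0.72 to NDUFB10 at -0.30, where 32.4% and 35.5% of all tested genes did.

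**Figure D2:**
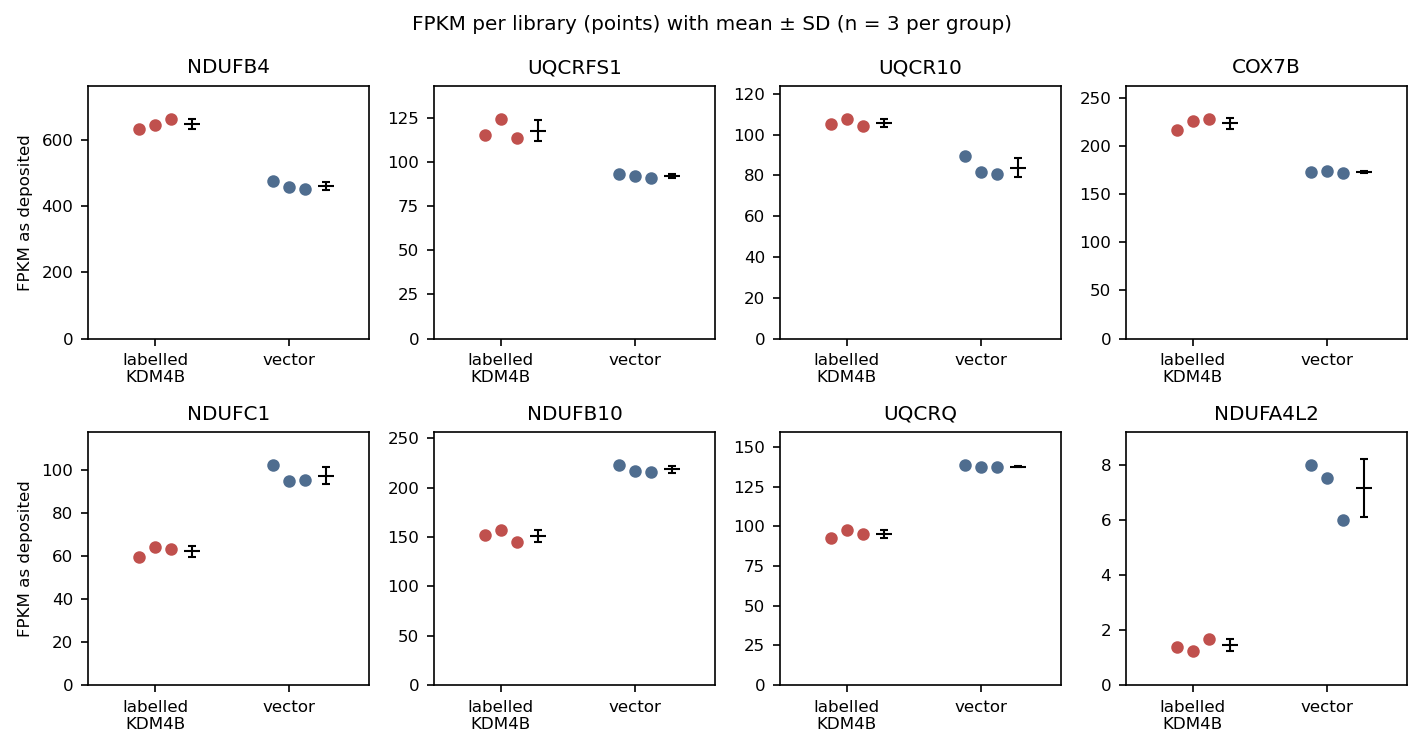
FPKM as deposited in each library (points; labelled KDM4B left, vector right) with mean ± SD (n = 3 per group) for 4 members that rose on both scales (top: NDUFB4, UQCRFS1, UQCR10, COX7B), 3 that fell on both scales (bottom: NDUFC1, NDUFB10, UQCRQ) and NDUFA4L2, which is not a chain subunit. In none of the 8 panels do the groups overlap; NDUFB4 lies at 635 to 665 FPKM in KDM4B-labelled libraries and 451 to 476 FPKM in vector libraries.

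Complex II, succinate dehydrogenase, oxidizes succinate in the citric acid cycle. SDHA, the flavoprotein that binds succinate, measured 72.4, 75.2 and 71.4 FPKM in KDM4B-labelled libraries, against 64.0, 67.5 and 64.2 FPKM in vector libraries. It was the only one of the 4 genes called as deposited, with a log2 fold change of 0.16 (SE 0.038), and 0.39 after scaling (limma, adjusted p = 0.00273 and 2.81e-06). SDHB, the iron-sulphur subunit, measured 69.7, 75.8 and 72.9 FPKM in KDM4B-labelled libraries, against 80.0, 74.1 and 74.6 FPKM in vector libraries. The membrane anchors SDHC (48.8, 52.6 and 54.1 FPKM in KDM4B-labelled libraries against 50.1, 48.1 and 51.5 FPKM in vector libraries) and SDHD (57.7, 59.1 and 63.3 FPKM in KDM4B-labelled libraries against 65.8, 59.9 and 62.6 FPKM in vector libraries) overlapped too. After scaling all 4 genes were called higher, where 32.4% of all tested genes rose and 35.5% fell. The log2 fold changes were 0.16 for SDHB, 0.28 for SDHC and 0.16 for SDHD (limma, adjusted p = 0.00426, 0.000201 and 0.0113). As deposited 13.4% of all tested genes rose and 60.3% fell. The scaled SDHD call was lost without vector replicate 2 (log2 fold change 0.13; limma, adjusted p = 0.0517).

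Complex III, the cytochrome bc1 complex, held neighbours within the same enzyme that moved apart. UQCRFS1, the Rieske iron-sulphur protein that takes electrons from ubiquinol, measured 116, 125 and 114 FPKM in KDM4B-labelled libraries, against 93.4, 92.2 and 91.2 FPKM in vector libraries. UQCR10, a small subunit near it, measured 105, 108 and 104 FPKM in KDM4B-labelled libraries, against 89.4, 81.6 and 80.7 FPKM in vector libraries. Both were above all vector libraries, with log2 fold changes of 0.35 and 0.33 as deposited and 0.58 and 0.56 after scaling (limma, adjusted p = 1.08e-05 and 2.87e-05 as deposited). UQCRQ, the subunit that contacts cytochrome b, measured 93.1, 97.8 and 95.3 FPKM in KDM4B-labelled libraries, against 139, 138 and 137 FPKM in vector libraries. All of its KDM4B-labelled libraries lay below all vector libraries, with a log2 fold change of -0.53 (SE 0.034) as deposited and -0.30 after scaling (limma, adjusted p = 8.75e-08 and 5.12e-06). The core proteins gave different calls. UQCRC2 measured 127, 138 and 129.8 FPKM in KDM4B-labelled libraries, against 124, 123.3 and 119 FPKM in vector libraries (log2 fold change 0.10 as deposited and 0.33 after scaling). UQCRC1 measured 118, 127 and 119 FPKM in KDM4B-labelled libraries, against 140.3, 137 and 135 FPKM in vector libraries (-0.18 as deposited and 0.05, not called, after scaling). UQCRH, the hinge protein that docks cytochrome c1, measured 487 ± 16.0 FPKM in KDM4B-labelled libraries and 455 ± 4.65 FPKM in vector libraries (SD, n = 3 each), with 0.10 as deposited and 0.33 after scaling. As deposited the UQCRC2 call (limma, adjusted p = 0.0307) was lost without KDM4B replicate 2 (0.0965), vector replicate 2 (0.0572) or vector replicate 3 (0.117). The UQCRH call (limma, adjusted p = 0.019) was lost without KDM4B replicate 4 (0.0733), vector replicate 1 (0.0591) or vector replicate 2 (0.0507). Of the 8 genes 4 rose and 3 fell as deposited, or 2 and 3 without vector replicate 2, and after scaling 5 rose and 1 fell. The shares of all tested genes that rose and fell were 13.4% and 60.3% as deposited, and 32.4% and 35.5% after scaling. CYC1, the cytochrome c1 of this complex, which the family names do not match, measured 178 ± 10.7 FPKM in KDM4B-labelled libraries and 197 ± 6.31 FPKM in vector libraries (SD, n = 3 each). It fell as deposited (log2 fold change -0.14; limma, adjusted p = 0.0142) and was not called after scaling (0.09; limma, adjusted p = 0.0601).

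Complex IV, cytochrome c oxidase, hands the electrons to oxygen around a core encoded by mitochondrial DNA, and its nuclear-encoded subunits regulate and stabilize it. COX7B measured 217, 226 and 228 FPKM in KDM4B-labelled libraries, against 173, 174 and 172 FPKM in vector libraries (log2 fold change 0.37 as deposited and 0.60 after scaling; limma, adjusted p = 1.38e-06 and 4.86e-08). COX6B1, which faces the intermembrane space, measured 226, 234 and 235 FPKM in KDM4B-labelled libraries, against 188, 203 and 193 FPKM in vector libraries (0.25 and 0.48; limma, adjusted p = 7.41e-05 and 5.32e-07). These were the 2 of 13 tested genes that rose as deposited, and 7 fell, where 13.4% and 60.3% of all tested genes did. COX4I1, the ubiquitous form of the largest nuclear-encoded subunit, overlapped as deposited with 269, 272 and 283 FPKM in KDM4B-labelled libraries, against 296, 295 and 279 FPKM in vector libraries, and rose after scaling (0.15; limma, adjusted p = 0.00427). When KDM4B replicate 4 or vector replicate 3 was left out it was called lower as deposited (limma, adjusted p = 0.043 and 0.0341). COX5A fell as deposited, at 153, 170.3 and 152 FPKM in KDM4B-labelled libraries, against 186, 194 and 193 FPKM in vector libraries. COX5B fell as well, at 242, 246 and 252 FPKM in KDM4B-labelled libraries, against 288, 290.1 and 276 FPKM in vector libraries. Their log2 fold changes were -0.27 and -0.21 as deposited, and neither was called after scaling, at -0.04 and 0.02. COX6A1 and COX7A2 likewise fell as deposited (log2 fold changes -0.29 and -0.32) and were not called after scaling (-0.06 and -0.09), unless KDM4B replicate 4 was left out (limma, adjusted p = 0.0179 and 0.00807). COX8A (-0.04 as deposited and 0.18 after scaling) and NDUFA4 (0.01 and 0.23), a subunit first assigned to complex I, were called higher after scaling and not as deposited. After scaling 7 of the 13 rose and 1 fell, where 32.4% and 35.5% of all tested genes did. Without KDM4B replicate 4, 3 of the 13 fell after scaling.

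For 6 subunits the call turned direction with the scale, lower as deposited and higher after scaling, so no direction is given for them. These were NDUFA3 (log2 fold change -0.11 and 0.12), NDUFB2 (-0.11 and 0.12) and NDUFB11 (-0.12 and 0.11) of complex I, COX6C (-0.14 and 0.09) and COX7C (-0.13 and 0.10) of complex IV, and ATP5E (-0.10 and 0.13), the epsilon chain of the ATP synthase. COX7C, for example, measured 411, 454 and 459 FPKM in KDM4B-labelled libraries, against 471, 492 and 481 FPKM in vector libraries. All 6 lay within 0.15 of 0 on both scales, and each of them lost a call on at least 1 scale when 1 library was left out. As deposited the NDUFA3 call dropped out when either of KDM4B replicates 1 and 2 or vector replicates 1 and 2 was removed (limma, adjusted p = 0.0608 to 0.163), and that of NDUFB2 without KDM4B replicate 1 or vector replicate 1 or 2 (0.0893 to 0.136). The same held for NDUFB11 without KDM4B replicate 1 or vector replicate 1 (0.051 and 0.0515), COX7C without KDM4B replicate 1 or vector replicate 2 (0.0615 and 0.0744) and ATP5E without KDM4B replicate 1 or any 1 vector library (0.0675 to 0.185). After scaling the call of NDUFA3 dropped out when KDM4B replicate 4 or vector replicate 3 was removed (limma, adjusted p = 0.0632 and 0.0832), that of NDUFB2 without KDM4B replicate 4 or vector replicate 2 or 3 (0.0538 to 0.0956) and that of NDUFB11 without vector replicate 3 (0.0795). The same held for COX6C without KDM4B replicate 1 or 4 or any 1 vector library (0.0527 to 0.114) and COX7C without KDM4B replicate 2 or 4 or vector replicate 1 or 3 (0.069 to 0.103).

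Complex V, the ATP synthase, was higher after scaling in 13 of its 15 genes and lower in 1, where 32.4% and 35.5% of all tested genes were. As deposited 5 of the 15 rose and 3 fell, where 13.4% and 60.3% of all tested genes did. ATP5A1, the alpha chain of the catalytic head, measured 458, 484 and 473 FPKM in KDM4B-labelled libraries, against 429, 428 and 424 FPKM in vector libraries (log2 fold change 0.14 as deposited and 0.37 after scaling; limma, adjusted p = 0.00181 and 6.04e-07). ATP5B, the beta chain that holds the catalytic sites, measured 710.2, 753 and 734 FPKM in KDM4B-labelled libraries, against 762, 744 and 738.5 FPKM in vector libraries. ATP5C1, the gamma chain that turns inside the head, measured 148, 153 and 153 FPKM in KDM4B-labelled libraries, against 143, 141 and 144 FPKM in vector libraries. ATP5A1 and ATP5C1 did not overlap between the groups and ATP5B did: ATP5B was called only after scaling (0.20; limma, adjusted p = 8.82e-05). The ATP5C1 rise of 0.08 as deposited (limma, adjusted p = 0.0393; 0.31 after scaling) was lost without any 1 library other than KDM4B replicate 1 (0.0672 to 0.131). That of the peripheral stalk gene ATP5H (0.13; 0.36 after scaling) was lost without vector replicate 3 (limma, adjusted p = 0.0676). Without vector replicate 3 the count of rises as deposited was 3, and without KDM4B replicate 1 or vector replicate 1 the count of falls was 1.

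The c-ring, the rotor that protons turn, is built of 1 mature protein encoded by 3 genes, ATP5G1, ATP5G2 and ATP5G3, whose products differ in the import peptide that is cut off. ATP5G1 measured 142, 156 and 145 FPKM in KDM4B-labelled libraries, against 125, 126 and 122 FPKM in vector libraries. ATP5G3 measured 63.4, 68.6 and 67.9 FPKM in KDM4B-labelled libraries, against 53.0, 51.6 and 51.3 FPKM in vector libraries. ATP5G2 measured 242, 245 and 252 FPKM in KDM4B-labelled libraries, against 311, 305 and 300 FPKM in vector libraries. No pair of groups overlapped. ATP5G1 and ATP5G3 rose (log2 fold changes 0.24 and 0.35 as deposited, 0.47 and 0.58 after scaling), and ATP5G2 fell (-0.31 and -0.08; limma, adjusted p = 4.98e-06 and 0.0399). The scaled ATP5G2 call dropped out when either of KDM4B replicates 1 and 2 or vector replicates 1 and 2 was left out (limma, adjusted p = 0.0905, 0.144, 0.103 and 0.08). Shares within a library do not depend on how libraries are scaled. ATP5G2 gave 53.5% ± 1.12 of the summed FPKM of the 3 genes in KDM4B-labelled libraries and 63.4% ± 0.18 in vector libraries (SD, n = 3 each). ATP5G1 gave 32.1% ± 1.03 in KDM4B-labelled libraries and 25.8% ± 0.26 in vector libraries, and ATP5G3 14.5% ± 0.25 in KDM4B-labelled libraries and 10.8% ± 0.09 in vector libraries. The ratio of ATP5G1 to ATP5G2 was 0.60 in KDM4B-labelled libraries against 0.41 in vector libraries, and that of ATP5G3 to ATP5G2 was 0.27 in KDM4B-labelled libraries against 0.17 in vector libraries, without overlap. Each gave an exact two-sided permutation p of 0.1, the smallest that 3 against 3 libraries allow (0.14 adjusted over the 7 ratios computed). ATP5G1 and ATP5G2 have 8 and 5 named pseudogenes and ATP5G3 has 0.

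**Figure D3:**
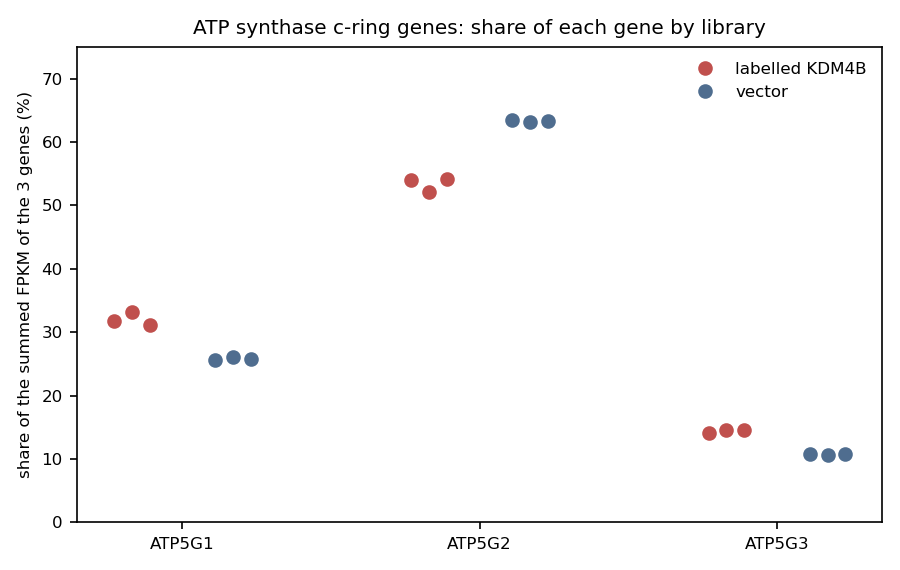
Share of each c-ring gene in the summed FPKM of ATP5G1, ATP5G2 and ATP5G3, in percent, in each library (points; labelled KDM4B left of vector within each gene). ATP5G2 lies at 52.2% to 54.2% in KDM4B-labelled libraries and at 63.2% to 63.6% in vector libraries.

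Tissue-restricted isoforms and relatives of subunits differed in level and in call. NDUFA4L2, a hypoxia-induced relative of NDUFA4 that is not counted as a chain subunit here, measured 1.40, 1.25 and 1.68 FPKM in KDM4B-labelled libraries, against 7.99, 7.52 and 6.00 FPKM in vector libraries. It had the lowest log2 fold change of all matched rows, -1.74 (SE 0.096) as deposited and -1.57 after scaling (limma, adjusted p = 2.48e-08 and 3.85e-07). NDUFA4 measured 79.9 ± 2.51 FPKM in KDM4B-labelled libraries and 79.5 ± 1.44 FPKM in vector libraries as deposited (SD, n = 3 each). Their ratio was 0.018 in KDM4B-labelled libraries and 0.090 in vector libraries (exact two-sided permutation p = 0.1, the smallest possible). COX7B2, a testis isoform, measured 1.09, 0.94 and 0.55 FPKM in KDM4B-labelled libraries, against 1.57, 1.99 and 1.85 FPKM in vector libraries, and fell on both scales (-0.60 and -0.47; limma, adjusted p = 0.000453 and 0.0042), whereas COX7B rose. COX6B2 measured 1.10 ± 0.12 FPKM in KDM4B-labelled libraries and 1.11 ± 0.22 FPKM in vector libraries (SD, n = 3 each; not called at -0.01 as deposited and 0.11 after scaling), and COX7A1 and COX8C stayed below 0.3 FPKM in every library. COX7A2L, a supercomplex assembly factor, averaged 59.0 FPKM in KDM4B-labelled libraries and 73.6 FPKM in vector libraries. It fell as deposited (log2 fold change -0.31; limma, adjusted p = 3.26e-05) and was not called after scaling (-0.09; limma, adjusted p = 0.0949), unless vector replicate 2 was left out (-0.12; limma, adjusted p = 0.0333). Its ratio to COX7A2 was 0.374 in both groups (exact two-sided permutation p = 1). Of the other matched rows that are not subunits, ATP5S fell on both scales (-0.42 and -0.21), and its scaled call dropped out when KDM4B replicate 2, KDM4B replicate 4 or vector replicate 1 was removed (limma, adjusted p = 0.0837, 0.0515 and 0.0862). Of the 11 rows 6 were below the filter.

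Summed over genes, the chain took between 2.61% and 2.73% of the deposited FPKM in every library. The 78 subunits summed to 2.65%, 2.73% and 2.72% of all FPKM in KDM4B-labelled libraries, against 2.65%, 2.62% and 2.61% in vector libraries, ranges that overlap, since KDM4B replicate 1 (2.646%) lay below vector replicate 1 (2.655%). Without ribosomal and small RNA genes in the total the shares were 2.97%, 2.98% and 3.03% in KDM4B-labelled libraries, against 2.67%, 2.63% and 2.62% in vector libraries, without overlap. On that total complex I made up 1.05% ± 0.011 in KDM4B-labelled libraries and 0.946% ± 0.016 in vector libraries (SD, n = 3 each). Complex IV made up 0.678% ± 0.013 in KDM4B-labelled libraries against 0.614% ± 0.0038 in vector libraries, and complex V 0.916% ± 0.0081 in KDM4B-labelled libraries against 0.780% ± 0.012 in vector libraries (SD, n = 3 each). The sums are descriptions, and the most abundant genes weigh most in them.

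Reads of single splicing events gave a count-based measure of the same genes. The most-read skipped exon (SE) event of each gene, normalized by TMM, was tested for 63 subunits. Of these, 32 rose and 5 fell (edgeR's quasi-likelihood test, adjusted p below 0.05), where 22.8% of 8556 genes rose and 22.9% fell. These reads come from the same libraries and are normalized by a similar principle as scaled FPKM, so they are not a replicate. In all, 55 of the 63 had the same call as after scaling, 0 an opposite call, and 59 the same sign. ATP5G3 had 2727, 2944 and 2911 reads in KDM4B-labelled libraries, against 2343, 2171 and 2142 in vector libraries (log2 fold change 0.58; edgeR, adjusted p = 5.39e-14). COX7B had 3195, 3434 and 3271 reads in KDM4B-labelled libraries, against 2617, 2686 and 2483 in vector libraries (0.56). UQCRQ had 5827, 5970 and 5830 reads in KDM4B-labelled libraries, against 8468, 8324 and 8173 in vector libraries (-0.28; edgeR, adjusted p = 2.44e-08), and NDUFC1 had 1023, 1104 and 1028 reads in KDM4B-labelled libraries, against 1631, 1559 and 1502 in vector libraries (-0.36). NDUFB10, NDUFA13 and NDUFC2 were also called lower, with log2 fold changes of -0.21, -0.22 and -0.18. Of the 11 falls called on both FPKM scales NDUFB7 and COX7B2 were not tested in these reads. Another 4 were tested and not called: NDUFA7 (-0.05; edgeR, adjusted p = 0.411), NDUFB9 (-0.09; 0.113), NDUFS4 (-0.16; 0.0598) and ATP5G2. ATP5G2 had 5175, 5316 and 5525 reads in KDM4B-labelled libraries, against 6609, 6392 and 6009 in vector libraries (-0.03; edgeR, adjusted p = 0.594). Summed over all SE events, which share reads, the counts were 14212396 to 14787321 in KDM4B-labelled libraries and 16451082 to 17021204 in vector libraries.

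**Figure D4:**
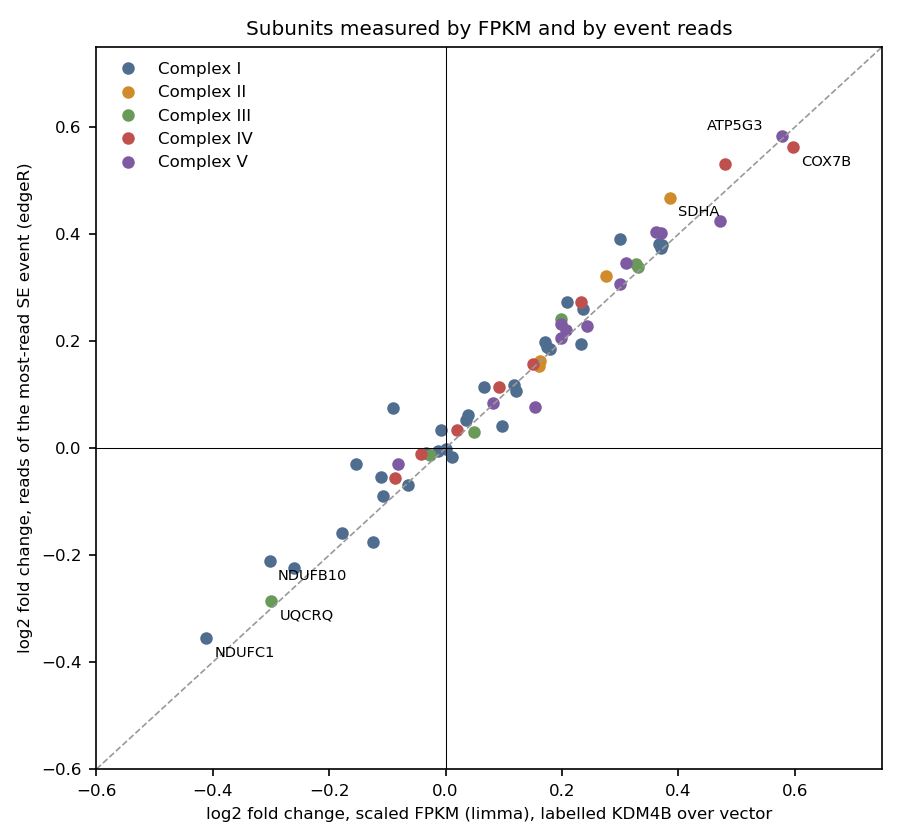
Log2 fold change by reads of the most-read SE event (y axis, edgeR) against log2 fold change of scaled FPKM (x axis, limma), labelled KDM4B over vector, for 62 subunit genes coloured by complex; the dashed line marks equal values. Of the 62 points 58 have the same sign on both axes, with ATP5G3 and COX7B at the upper end and NDUFC1 at the lower end.

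The series was designed to compare alternative splicing, and few of the tested events were called, among all genes as among chain genes. The tables give 1 count per event that joins both forms, and separate counts were recovered for exons that share flanks with a mutually exclusive exon (MXE) event. Of 11 SE events of subunit genes tested 0 were called (2 at an unadjusted p below 0.05; DESeq2 also called 0), where 5.5% of all 1346 tested SE events were. Of 25 MXE events 1 was called, where 1.63% of 2997 were. It lies in NDUFV3, a subunit at the tip of complex I with a short and a long form. The event compares the reads of a pair of exons (chromosome 21, 44317037 to 44317157, against 44323292 to 44324386), not adjusted for their lengths. Against skipping reads, each of the 2 exons made up at least 95.6% in every library. Of the reads of the pair, 37.6% ± 2.21 lay on the shorter exon in KDM4B-labelled libraries and 43.0% ± 1.23 in vector libraries (SD, n = 3 each). This difference was called (edgeR, adjusted p = 0.0481). This call was lost in DESeq2 and without KDM4B replicate 2 or 4 or any 1 vector library (edgeR, highest adjusted p = 0.288).

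Retained intron (RI) and alternative 5' splice site (A5SS) events could not be split by form, so their reads were set against those of the gene's most-read SE event. ATP5D, the delta chain of the ATP synthase head, has an RI event at chromosome 19, 1244314 to 1244824. It had 3544, 3693 and 3316 reads in KDM4B-labelled libraries, against 2460, 2676 and 2430 in vector libraries, while the SE event had 3213, 3279 and 2974 reads in KDM4B-labelled libraries, against 3563, 3388 and 3475 in vector libraries. The event thus took 52.4%, 53.0% and 52.7% of the joined reads in KDM4B-labelled libraries, against 40.8%, 44.1% and 41.2% in vector libraries, without overlap (log2 odds ratio 0.62; edgeR, adjusted p = 0.000652; DESeq2, adjusted p = 2.72e-06). The call held without each of the 6 libraries (edgeR, highest adjusted p = 0.00538), and it was 1 of 3 RI events of subunits tested, where 7.66% of 783 were called. Which form of the event gained the reads is not given by these counts. ATP5D overlapped in FPKM, at 230.2, 246 and 210.2 in KDM4B-labelled libraries, against 240.3, 245 and 236 in vector libraries. Its log2 fold change of -0.08 as deposited was not called (limma, adjusted p = 0.193; 0.0199 without KDM4B replicate 2), and 0.15 after scaling was called higher (limma, adjusted p = 0.0116; 0.0511 without vector replicate 3). Of 20 A5SS events in 5 genes 1 was called, where 2.02% of 1189 were. Most of the 20 belong to ATP5J and were set against the same SE reads, so they are not independent. The called ATP5J event (longer exon at chromosome 21, 27107250 to 27107965) took 5.49% ± 0.11 in KDM4B-labelled libraries and 4.29% ± 0.21 in vector libraries (SD, n = 3 each; edgeR, adjusted p = 0.049). Other ATP5J events with the same longer exon were not called (edgeR, adjusted p = 0.181 and 0.399). The call was lost without any 1 of the 6 libraries (edgeR, highest adjusted p = 0.172) and in DESeq2 (adjusted p = 0.538). Positions are as deposited with starts counted from 1; the build behind them is uncertain, so they are not comparable with the promoter positions above.

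Among genes that build and feed the chain, the assembly factors gave larger single differences than the subunits. Of 52 assembly factor genes 3 rose and 29 fell as deposited, and 22 rose and 16 fell after scaling. Their median log2 fold change was -0.14 as deposited and 0.08 after scaling. Of all tested genes 13.4% rose and 60.3% fell as deposited, and 32.4% rose and 35.5% fell after scaling. The same shares stand beside the counts of the gene lists that follow. C6orf57, also named SDHAF4, an assembly factor of complex II, measured 5.80, 7.66 and 6.47 FPKM in KDM4B-labelled libraries, against 18.1, 20.9 and 19.2 FPKM in vector libraries (log2 fold change -1.42 as deposited and -1.21 after scaling; limma, adjusted p = 3.39e-08 and 2.95e-07). UQCC2, needed to make cytochrome b of complex III, measured 44.1, 43.5 and 47.8 FPKM in KDM4B-labelled libraries, against 91.0, 84.4 and 83.2 FPKM in vector libraries (-0.92 and -0.69). SCO2, a copper chaperone of complex IV, went the other way with 18.9, 19.3 and 17.7 FPKM in KDM4B-labelled libraries, against 10.4, 11.4 and 9.80 FPKM in vector libraries (0.77 and 0.98). None of these 3 genes overlapped between the groups.

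Among 11 genes of electron carriers and dehydrogenases that feed the chain, 3 rose and 5 fell as deposited and 6 rose and 2 fell after scaling, with medians of -0.01 and 0.22. ETFB, a subunit of the flavoprotein that carries electrons from fatty acid oxidation, measured 184, 195 and 189 FPKM in KDM4B-labelled libraries, against 125, 127 and 129 FPKM in vector libraries (log2 fold change 0.57 as deposited and 0.80 after scaling; limma, adjusted p = 5.09e-08 and 4.46e-09). GPD2, the mitochondrial glycerol-3-phosphate dehydrogenase, and DHODH, of pyrimidine synthesis, fell on both scales (log2 fold changes -0.39 and -0.37 as deposited, -0.18 and -0.17 after scaling). GPD2 measured 10.6 ± 0.27 FPKM in KDM4B-labelled libraries against 14.1 ± 0.47 FPKM in vector libraries and DHODH 8.08 ± 0.48 FPKM in KDM4B-labelled libraries against 10.8 ± 0.41 FPKM in vector libraries (SD, n = 3 each). Of 8 tested carrier, porin and uncoupling genes 0 rose and 4 fell as deposited, and 5 rose and 1 fell after scaling (medians -0.11 and 0.12). SLC25A4, the muscle form of the ADP/ATP carrier, fell on both scales (12.3 ± 0.65 FPKM in KDM4B-labelled libraries and 17.5 ± 0.86 FPKM in vector libraries; log2 fold change -0.47 as deposited and -0.26 after scaling). SLC25A5 and SLC25A6, its common forms, fell as deposited (-0.25 and -0.21) and were not called after scaling (-0.02 and 0.02).

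Of 21 tested regulators of mitochondrial biogenesis, 2 rose and 12 fell as deposited, where 13.4% and 60.3% of all tested genes did. After scaling 8 rose and 4 fell, where 32.4% and 35.5% of all tested genes did. The medians were -0.14 as deposited and 0.05 after scaling. The subunits of the GA-binding protein, which binds ETS motifs, fell on both scales. GABPA measured 5.88 ± 0.07 FPKM in KDM4B-labelled libraries and 7.76 ± 0.35 FPKM in vector libraries (SD, n = 3 each). GABPB1 measured 8.40 ± 0.46 FPKM in KDM4B-labelled libraries against 12.1 ± 0.42 FPKM in vector libraries and GABPB2 6.16 ± 0.52 FPKM in KDM4B-labelled libraries against 8.82 ± 0.56 FPKM in vector libraries (SD, n = 3 each). Their log2 fold changes were -0.35, -0.48 and -0.46 as deposited and -0.15, -0.27 and -0.26 after scaling, and the scaled GABPA call (limma, adjusted p = 0.0245) dropped out when KDM4B replicate 2 (0.0794) or vector replicate 1 (0.09) was left out. NRF1 and YY1, named after the other motifs searched, fell as deposited (log2 fold changes -0.36 and -0.29; limma, adjusted p = 0.00051 and 0.000148) and were not called after scaling (-0.16 and -0.07; limma, adjusted p = 0.0609 and 0.187). TFAM, which packages and transcribes mitochondrial DNA, fell as deposited (-0.22; limma, adjusted p = 0.000757) and stood at -0.01 after scaling. NRF1, YY1, TFAM and CYC1 were named after their values were seen.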

How the data were processed

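RNA-seq libraries were grouped by the genotype labels into 3 labelled KDM4B and 3 vector libraries. Per the submitters' processing notes, the tools were Cufflinks, HISAT and StringTie and the builds GRCh38 and hg38, with no role or version stated. The authors deposited FPKM per gene and unnormalized read counts per splicing event, per the file headers; no source used here names the splicing caller.

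FPKM were tested with limma 3.58.1 (R 4.3.3; eBayes with trend) on log2(FPKM + 1), keeping genes whose mean reached 1 FPKM, two-sided, with Benjamini-Hochberg adjustment over all 12148 genes at 0.05. Fold changes on this scale understate changes of low genes. Calls are given as deposited and after division by each library's median of ratios; FPKM levels are as deposited. FPKM hold no counts, so depth per gene is unknown. Event counts were tested with edgeR 4.0.16 (TMM, glmQLFTest), with DESeq2 1.42.0 as an alternative, for at least 10 reads in each library. Skipping counts were recovered where an MXE event and 2 SE events share exons: the SE counts minus the MXE count give skipping multiplied by 2 (19478 of 19482 values exactly even and not negative, 99.98%). The planned test of both forms could not be made for A5SS and RI events; A3SS events were not analysed here. Complex sums had no test, and ratios an exact permutation test. Promoters were matched by gene ID in RefSeq tables, and pseudogenes by symbol.

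Replicates differed by more than sampling noise (chi-square per degree of freedom 2.41 to 2.96 within groups, 27.7 to 32.9 between groups, over 8881 events). On simulated data limma recovered 44.0% and 93.0% of log2 changes of 0.25 and 0.5 among 12148 genes, and edgeR 12.0% and 71.0% of the same changes among 8556 events. The form test recovered 46.0% of log2 odds ratios of 2 among 1346 SE events and 96.0% among 2997 MXE events.

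The members, the gene lists and the motifs were chosen with earlier results of these data known. Named genes are catalytic and core subunits, isoform pairs, the 5 highest and 5 lowest fold changes as deposited, members that turned direction with the scale, and up to 3 genes of each other list with the lowest p; others were named after their values were seen. Some genes of these lists are not reported here. Alternatives were another scaling, pseudocount, filter, variance model, count test and replicate block, and leaving out single libraries.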

Additional observations from a re-analysis of the deposited data

How the results depend on the processing

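A pseudocount of 0.1 changed no count by more than 1.5 times. Median-of-ratios scaling in place of values as deposited gave 3934 rises and 4317 falls of all genes, 45 and 11 of the subunits, 16 and 8 in complex I, 4 rises in complex II, 1 fall in complex III, 7 and 1 in complex IV and 13 and 1 in complex V. Among genes named by the rules above and called on at least 1 scale, it turned the sign of NDUFS7 (0.0108), SLC25A6 (0.0194), COX5B (0.0202), UQCRC1 (0.0483), COX6C (0.0913), COX7C (0.101), NDUFB11 (0.105), NDUFB2 (0.117), NDUFA3 (0.121), ATP5E (0.132), COX4I1 (0.15), SDHB (0.16), SDHD (0.162), NDUFV1 (0.174), COX8A (0.185) and ATP5B (0.198), all log2 fold changes. Other members, such as ATP5D (-0.08 as deposited and 0.15 after scaling), changed sign too. The change of sign follows from dividing the vector libraries by larger factors. Scaling by the FPKM sum without ribosomal and small RNA genes changed no call of a named gene made after median-of-ratios scaling. Without the filter complex V had 1 fall, and without the mean-variance trend complex III had 2 rises; the cause was not tested.

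Replicate numbers 1 and 2 occur in both groups, but their deviations correlated at -0.02 and 0.13, so they were taken as numbers only. With the replicate number as a block the subunits had 12 rises and 37 falls as deposited. Rises as deposited numbered 2 in complex III and 3 in complex V. After scaling the subunits had 37 rises and 13 falls, with 2 rises in complex II and 3 falls in complex IV. KDM4B replicate 4 and vector replicate 3 are each alone in their block, so this fit compared only replicates 1 and 2 of each group.

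Leaving out 1 library at a time gave, as deposited, 2 to 4 rises in complex III and 3 to 5 rises in complex V. The falls in complex V as deposited went down to 1, and without KDM4B replicate 2 ATP5D joined them (limma, adjusted p = 0.0199). After scaling there were 1 to 3 falls in complex IV and 0 to 1 in complex V. Called MXE and A5SS events of subunits each numbered 0 with DESeq2; without 1 library MXE calls numbered 0 to 1 and A5SS calls 0. Leaving out libraries in the test of event reads was chosen after seeing the data and gave 28 to 33 rises and 4 to 6 falls of subunits. Few skipping reads limit the SE test.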
